A study of Mus musculus with 3 samples.

Results

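The A20 network is the set of 10 genes around A20 (Tnfaip3) that attach, edit, bind or remove ubiquitin chains in Tlr and Tnf receptor signalling. The members were taken by symbol from the deposited gene tables: Tnfaip3, Tnip1, Tnip2, Tnip3, Cyld, Otulin, Tax1bp1, Birc2, Birc3 and Traf1. All 10 were found among 55450 annotated genes with a symbol, and all 10 were among the 15874 that averaged 10 or more counts per library. The study sequenced ribosome-depleted total RNA of the nuclear fraction (nucleoplasmic in some labels) of macrophages grown from C57BL/6J mouse bone marrow. All libraries belong to a single group, exposed to 100 ng/ml Lipid A, the Tlr4-binding part of lipopolysaccharide, for 15 min. There were 3 biological replicates, made from 1 µg (replicates 1 and 3) or 500 ng (replicate 2) of RNA. All of them carry the same donor entry, so the spread between them may be technical. No untreated or later sample is analysed here, so the values are levels at this time and not changes caused by Lipid A.

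Signalling from Tlr4 and Tnf receptors builds chains of ubiquitin, a small protein tag, on adaptor proteins, and these chains recruit the kinases that switch on the transcription factor NF-κB. A20 ends the signal: it is a ubiquitin-editing enzyme whose gene is a well-known NF-κB target, so that the pathway limits itself. Its binding partners Abin1, Abin2 and Abin3 (Tnip1, Tnip2, Tnip3) and the adaptor Tax1bp1 bring it to ubiquitin chains. Cyld and Otulin are deubiquitinases of their own. The ligases cIAP1 and cIAP2 (Birc2, Birc3) and the adaptor Traf1 work where chains are built.

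The gene tables held 17328240 to 20923982 expected counts in annotated genes per library. The small nuclear RNA Rn7sk alone took 21.2% to 25.4% of TPM, and protein-coding genes took 27.5%, 35.5% and 21.3% in replicates 1 to 3. TPM (a relative abundance corrected for transcript length) therefore compares genes within a library here, and counts scaled by TMM factors compare libraries. All 6 of 6 macrophage markers were high, between 54.5 TPM for Itgam and 1978 TPM for Lyz2. Their summed level was 2491, 3447 and 2884 TPM in replicates 1 to 3. The defining T cell marker Cd3e was at 0 counts in every library and all markers of B cells, neutrophils, dendritic cells, mast cells, fibroblasts and red cells had a mean below 1 TPM. Cd4 was at 21.4 ± 9.7 TPM and Kdr, from the endothelial list, at 4.23 ± 0.42 TPM (SD, n = 3).

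The median member of the A20 network stood at 18.1, 25.9 and 20.0 TPM in replicates 1 to 3, a mean of 21.3 ± 4.0 TPM (SD, n = 3). The median was 6.87 TPM over the 11956 protein-coding genes and 4.92 TPM over all 15874 genes that passed the count filter. Of the 10 members, 9 lay above that protein-coding median, the same 9 had a mean of at least 10 TPM, and Traf1 was the exception. The share of all genes at 10 TPM is not given. Birc2, the lowest of the 9, stood above 67.6% of protein-coding genes. Over coding transcripts alone the median member fell to 10.3 TPM, against 4.32 TPM for protein-coding genes, and 8 of 10 members lay above it. In the second transcript table the medians were 13.1 and 4.20 TPM, with 9 of 10 members above. Protein-coding genes took 14.07%, 27.95% and 3.84% of TPM there in replicates 1 to 3, so these means join libraries of unlike composition. By mean level Tnfaip3 and Tnip3 came first, above 97.1% and 96.2% of protein-coding genes. The place of Tnip3 rests on replicate 1: without it, Tnip3 averaged 35.8 TPM and Tax1bp1 37.2 TPM. In such bulk RNA, more cells with a transcript and more RNA per cell cannot be told apart.

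**Figure D1:**
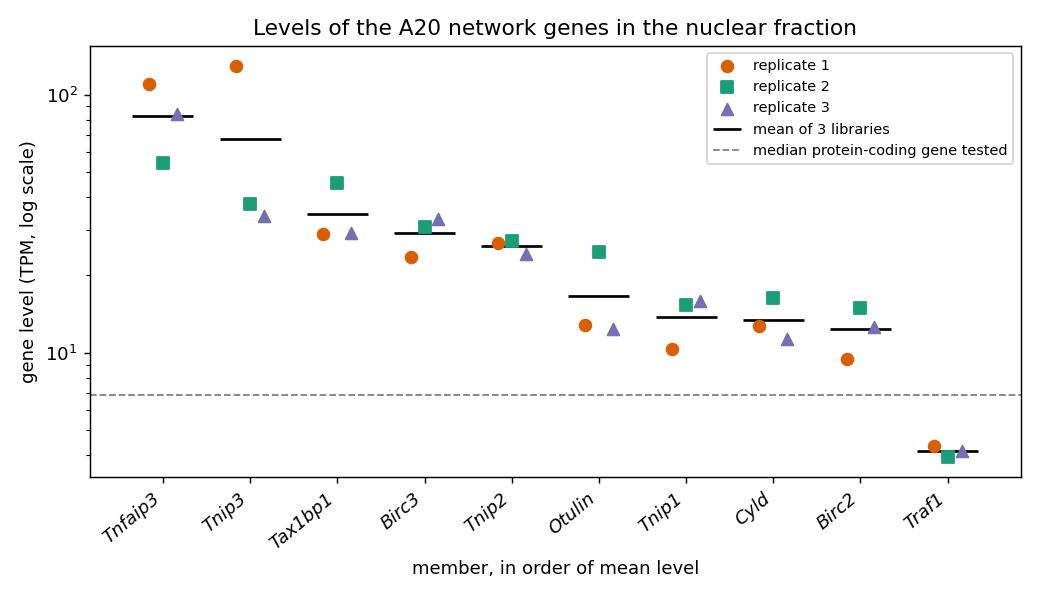
Level of each member gene in the 3 libraries (TPM on a log axis); symbols mark the replicates, black lines the mean of 3 libraries, and the dashed line the median of tested protein-coding genes, 6.87 TPM. Tnfaip3 and Tnip3 have the highest means, that of Tnip3 through replicate 1, and Traf1 alone lies below the dashed line.

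Tnfaip3 (ENSMUSG00000019850.11, GRCm38 chromosome 10, 19000910 to 19015657, minus strand) encodes A20 itself. It had 109.8, 54.2 and 84.3 TPM in replicates 1 to 3, a mean of 82.8 ± 27.9 TPM (SD, n = 3), from 7046, 2252 and 7036 expected counts. Replicate 2 was the lowest on either scale. Its promoter is shown because it holds matches to the NF-κB consensus, a motif of 10 bases searched on both strands. The sequence is from RefSeq (GRCm38.p6), chr10:19015361-19015660, minus strand, from 250 bases before to 50 bases after the start, with matches in capitals.
Tnfaip3 promoter: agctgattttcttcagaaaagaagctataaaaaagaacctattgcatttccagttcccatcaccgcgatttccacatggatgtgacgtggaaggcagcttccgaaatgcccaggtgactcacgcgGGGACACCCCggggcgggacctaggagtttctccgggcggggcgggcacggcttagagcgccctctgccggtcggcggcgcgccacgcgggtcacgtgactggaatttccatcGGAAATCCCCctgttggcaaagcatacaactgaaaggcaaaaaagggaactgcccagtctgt
A match ran from -125 to -116, and a second one from -12 to -3, relative to the start site. The window of the other RefSeq start of the gene held none. That start lies 3447 bases further on, where the leading coding transcript, Tnfaip3-202, begins (29.0% of the gene's counts). The coding transcript that begins at the printed start, Tnfaip3-201, took 0.523% of counts. The retained-intron transcript Tnfaip3-205, with 58.1%, begins 34 bases after the printed start.

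Most Tnfaip3 counts did not lie in the transcripts that code for the protein. The transcript Tnfaip3-205, 6199 nucleotides long and typed as retained intron, took 58.1% ± 2.3 of the gene's counts (SD, n = 3). It keeps introns 5 and 7 of the 9-exon coding transcript Tnfaip3-201, and 29.5% of its length lies in no coding exon. The coding transcript Tnfaip3-202 followed with 29.0% ± 1.7. Tnfaip3-206, a retained-intron fragment of 764 nucleotides from the end of intron 2 into exon 4, took 10.8% ± 2.5. That short transcript weighed far more in TPM, at 37.0 ± 10.8 TPM against 19.7 ± 9.0 TPM for Tnfaip3-205 and 14.3 ± 6.3 TPM for Tnfaip3-202. Over protein-coding transcripts alone, Tnfaip3 had 33.0, 16.7 and 28.3 TPM in replicates 1 to 3, a mean of 26.0 ± 8.4 TPM (SD, n = 3). Of that mean, 11.4 ± 2.1 TPM came from Tnfaip3-204, a coding transcript of 456 nucleotides with 1.52% of the gene's counts.

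The genes of the Abin proteins, which bind A20 and ubiquitin, spanned a wide range. Tnip3 (Abin3; ENSMUSG00000044162.12, chromosome 6, 65525313 to 65634040, plus strand) had 129.7, 37.7 and 33.8 TPM in replicates 1 to 3, from 9649, 2480 and 3138 counts. Replicate 1 lay far above the others, and the mean of 67.1 ± 54.3 TPM (SD, n = 3) rests on it. Without replicate 1, Tnip3 stood between 33.8 and 37.7 TPM and still above the other Abin genes. Tnip2 (Abin2; ENSMUSG00000059866.13, chromosome 5) had 26.6, 27.1 and 24.1 TPM, a mean of 25.9 ± 1.6 TPM (SD, n = 3). It was among the steadiest members. Tnip1 (Abin1; ENSMUSG00000020400.17, chromosome 11) had 10.3, 15.3 and 15.8 TPM, a mean of 13.8 ± 3.0 TPM (SD, n = 3), with replicate 1 the lowest. Another annotated gene overlaps Tnip1, and since strand use in counting is not stated, reads of the overlap cannot be told apart.

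The promoters of Tnip3 and Tnip1 are printed beside that of Tnfaip3 because each holds the consensus close before its start. They are RefSeq sequences (GRCm38.p6), chr6:65590148-65590447 on the plus strand for Tnip3 and chr11:54962891-54963190 on the minus strand for Tnip1, with matches in capitals.
Tnip3 promoter: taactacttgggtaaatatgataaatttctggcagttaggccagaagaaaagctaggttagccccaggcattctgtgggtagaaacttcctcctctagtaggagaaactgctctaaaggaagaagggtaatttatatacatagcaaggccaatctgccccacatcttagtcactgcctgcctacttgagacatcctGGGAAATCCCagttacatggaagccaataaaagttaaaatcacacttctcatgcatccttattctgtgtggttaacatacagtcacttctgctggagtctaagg
Tnip1 promoter: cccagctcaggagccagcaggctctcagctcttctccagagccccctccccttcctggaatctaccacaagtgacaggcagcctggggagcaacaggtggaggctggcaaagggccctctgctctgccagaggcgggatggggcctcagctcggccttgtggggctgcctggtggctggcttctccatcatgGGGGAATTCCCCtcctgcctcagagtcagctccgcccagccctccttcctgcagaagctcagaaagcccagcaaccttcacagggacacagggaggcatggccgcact
In Tnip3 the match ran from -54 to -45 and fitted the consensus on both strands. In Tnip1 there were 3 overlapping matches between -58 and -47. Over the network, 5 of 10 genes and 5 of their 13 RefSeq promoters held a match. The others were Cyld, from -155 to -146, and the second start of Tax1bp1, from 35 to 44 after it. Among all 32851 mouse promoters in the table, 2779 held a match, or 8.46%. A match describes the letters of a 300-base window and no binding was measured.

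Of the deubiquitinases, Otulin (ENSMUSG00000046034.8, chromosome 15), which cleaves linear ubiquitin chains, had 12.8, 24.6 and 12.3 TPM in replicates 1 to 3, a mean of 16.6 ± 7.0 TPM (SD, n = 3). Replicate 2 was the highest, and there a transcript typed as nonsense-mediated decay, Otulin-203, took 30.0% of the counts, against 20.0% in replicate 1 and 5.5% in replicate 3. In TPM, Otulin varied less over coding transcripts, with 8.29, 12.8 and 11.0 TPM. By TMM-scaled counts relative to library size (CPM) it was not steadier. Its coding transcripts had 13.46, 19.21 and 23.43 CPM in replicates 1 to 3, with replicate 3 the highest. The whole gene had 16.95, 27.58 and 24.93 CPM. Cyld (ENSMUSG00000036712.15, chromosome 8), the tumour suppressor that cleaves linear chains and other signalling chains, had 12.7, 16.3 and 11.3 TPM, a mean of 13.4 ± 2.6 TPM (SD, n = 3). It is a long gene, with 1348, 1432 and 1499 counts that hardly moved between libraries. Tax1bp1 (ENSMUSG00000004535.12, chromosome 6), an adaptor that links A20 to its targets and also acts in selective autophagy, was higher, at 28.9, 45.5 and 29.0 TPM. Its mean was 34.5 ± 9.5 TPM (SD, n = 3). Otulin, Cyld and Tax1bp1 each overlap another annotated gene, and those reads cannot be told apart without strand.

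The genes of the cIAP ligases lie side by side on chromosome 9, both on the minus strand. Birc3 (cIAP2; ENSMUSG00000032000.17), the member of the pair better known as an NF-κB target, had 23.4, 30.8 and 33.0 TPM in replicates 1 to 3, a mean of 29.1 ± 5.0 TPM (SD, n = 3). Birc2 (cIAP1; ENSMUSG00000057367.12) had 9.43, 15.0 and 12.6 TPM, a mean of 12.3 ± 2.8 TPM (SD, n = 3). Birc3 was higher than Birc2 in every library. They are paralogs, and 3.53% of the 31-base words of Birc3-201 occur in Birc2-204. The deposited posterior SD of their counts was at most 0.15 reads. How reads were divided between the 2 genes was not tested. Part of the level of Birc3 came from 2 short processed transcripts, which held 6.5% ± 1.3 of its counts but 51.1% ± 5.6 of its TPM. Traf1 (ENSMUSG00000026875.14, chromosome 2), an adaptor that pairs with Traf2 and binds the cIAPs, was the lowest member, at 4.34, 3.93 and 4.17 TPM from 216, 148 and 244 counts in replicates 1 to 3. Its mean was 4.15 ± 0.21 TPM (SD, n = 3), the only one under 10 TPM.

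In the order of mean levels, Tnfaip3 came before Tnip3, Tax1bp1, Birc3, Tnip2, Otulin, Tnip1, Cyld, Birc2 and Traf1. Neighbours were compared within each library on the log2(TPM + 0.1) scale. Of the 9 steps, 2 had the same sign in all libraries and a mean above 1 SD: Tnip2 above Otulin by 0.72 ± 0.50, and Birc2 above Traf1 by 1.52 ± 0.40 (SD, n = 3). The remaining 7 steps did not exceed their spread, Tnfaip3 over Tnip3 included, which was -0.24 in replicate 1, 0.52 in replicate 2 and 1.31 in replicate 3.

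Related genes were set against each other in 5 pairs, chosen for shared function. Over 3 libraries the exact permutation test by sign flips (two-sided) cannot give a p below 0.25, so no pair could pass 0.05; all 5 reached p = 0.25, also after Benjamini-Hochberg adjustment. Birc3 was 2.37-fold above Birc2, with a log2 difference of 1.24 ± 0.18 (SD, n = 3) that was positive in 3 of 3 libraries. Over coding transcripts that ratio was 1.54-fold, and in the second transcript table the log2 difference was 2.33. In CPM, which is not corrected for length, it was 0.18 with p = 0.5 in the same exact test, and Birc2 was then the higher in replicate 2. Tnfaip3 was 5.95-fold above Cyld (log2 2.57 ± 0.74, SD, n = 3), again in 3 of 3 libraries. That fold was 3.75 over coding transcripts, and the log2 difference was 1.76 in CPM and 3.18 in the second table. Tnip1 was lower than Tnip2 in 3 of 3 libraries, with a log2 difference of -0.93 ± 0.38 (SD, n = 3). Cyld and Otulin differed by -0.24 ± 0.31, less than the spread between libraries. Over coding transcripts Cyld was lower than Otulin, with a log2 difference of -0.67 ± 0.30 (0.629-fold), and in CPM, which is not corrected for length, the difference was 1.74.

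Tnip3 was 4.02-fold above Tnip1 over all transcripts, with log2 differences of 3.64, 1.29 and 1.09 in replicates 1 to 3. Over protein-coding transcripts alone the direction turned, and Tnip3 was lower than Tnip1, with a log2 difference of -2.31 ± 1.49 (SD, n = 3). Coding transcripts of Tnip3 had 3.53, 1.87 and 0.72 TPM in replicates 1 to 3, and those of Tnip1 had 6.42, 9.39 and 11.4 TPM. On that basis Tnip3 stood second to last in the order of the network by mean level, above Traf1. Its step over Traf1, 0.76 ± 1.28 on the log2 scale (SD, n = 3), did not exceed its spread and was -0.54 in replicate 3. The coding order ran Tnfaip3, Tax1bp1, Tnip2, Birc3, Otulin, Tnip1, Birc2, Cyld, Tnip3 and Traf1, with 4 of 9 steps beyond their spread. The largest of these was Cyld over Tnip3, by 1.89 ± 1.01 on the log2 scale (SD, n = 3).

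**Figure D2:**
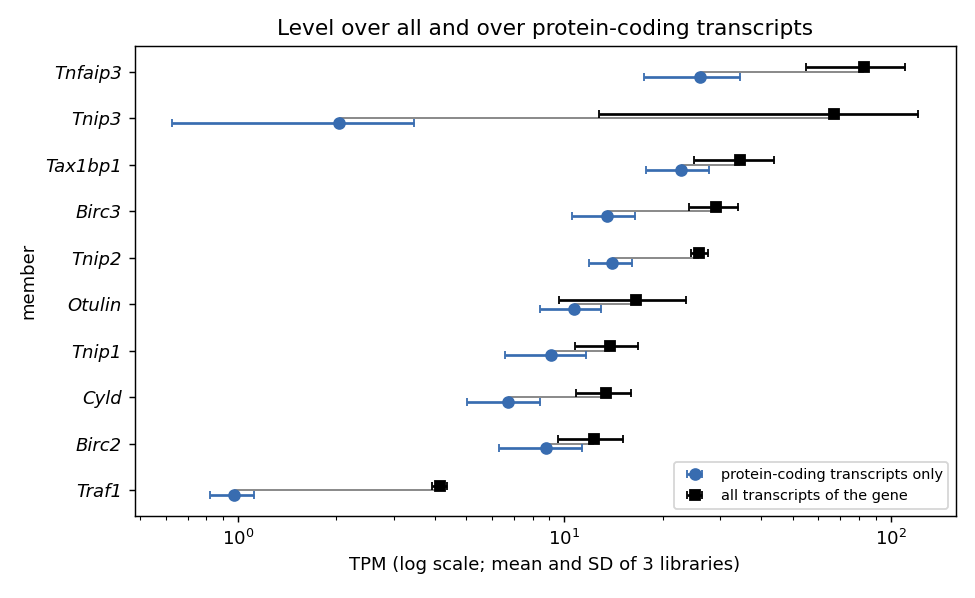
Mean level of each member with its SD over 3 libraries (TPM on a log axis), over protein-coding transcripts only (blue circles) and over all transcripts of the gene (black squares). The gap is widest for Tnip3, at 2.04 TPM over coding transcripts and 67.1 TPM over all.

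The transcript types of the members differed widely. Retained-intron transcripts, in which the annotation keeps intron sequence that a coding transcript splices out, took 96.7%, 94.4% and 97.3% of Tnip3 counts in replicates 1 to 3. For Tnfaip3 the share was 70.1%, 70.5% and 66.2%, and for Traf1 68.4%, 56.6% and 68.1%. These 3 members had means of at least 50%, out of 8 with such a transcript. The other 5 had 36.2% ± 5.6 (Tax1bp1), 22.7% ± 3.2 (Cyld), 19.6% ± 4.5 (Tnip2), 12.9% ± 3.8 (Birc2) and 2.79% ± 0.97 (Tnip1; SD, n = 3). These are shares of counts. By share of TPM the same 5 had 33.0% (Tax1bp1), 34.1% (Cyld), 46.0% (Tnip2), 28.4% (Birc2) and 17.35% (Tnip1). No retained-intron transcript is annotated for Birc3 or Otulin.

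Over all 7232 genes with a retained-intron transcript and enough counts, 17.3% had a share of at least 50%, and the median share was 19.3%, against 29.4% over the 8 members. Tnip3 had a higher share than 99.0% of those genes, Tnfaip3 than 92.5% and Traf1 than 90.8%, while Tnip1 exceeded only 14.1%. In the second transcript table the shares were 94.1% ± 1.5 for Tnip3, 58.9% ± 1.0 for Tnfaip3 and 43.2% ± 11.8 for Traf1 (SD, n = 3). By share of TPM in the first table Traf1 had 49.7% ± 5.6. Traf1 thus passed 50% only by counts in the first table. A share is a model's division of reads among annotated transcripts, so intron reads outside them are not counted. In RNA of the nuclear fraction an RNA that awaits splicing and one that keeps its intron cannot be told apart.

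**Figure D3:**
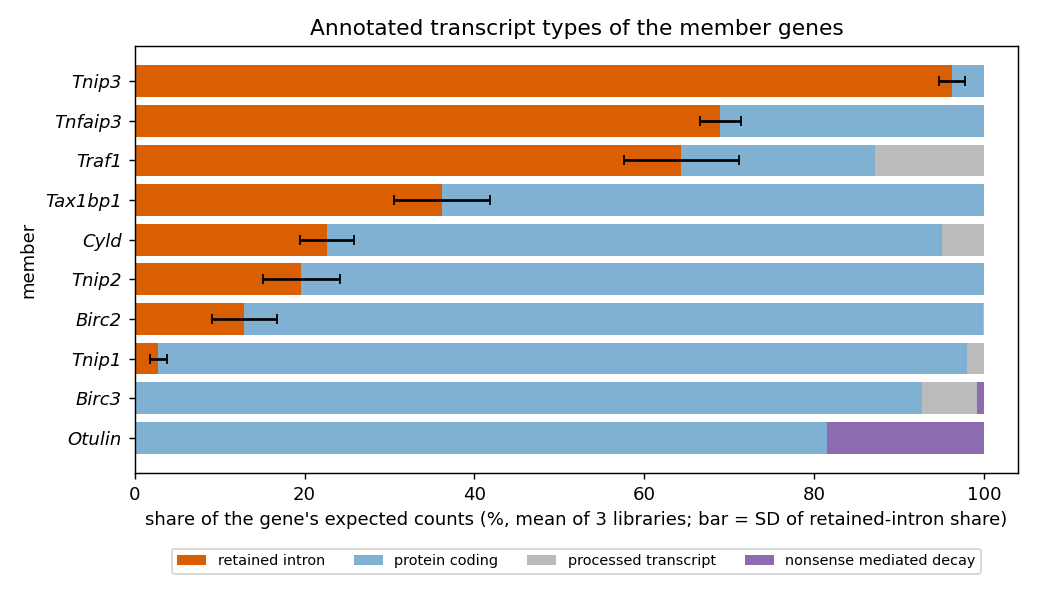
Share of each member's expected counts by annotated transcript type (percent, mean of 3 libraries; error bars, SD of the retained-intron share). Tnip3, Tnfaip3 and Traf1 hold most of their counts in retained-intron transcripts, and Birc3 and Otulin have none annotated.

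In Tnip3, intron counts could be placed only in the first part of the coding transcript's span, where its 4 annotated retained-intron transcripts lie. Tnip3-206, a single block of 4627 nucleotides that begins 89 bases after the start of the coding transcript Tnip3-201, took 68.6% ± 0.96 of the counts (SD, n = 3). It holds the end of exon 1, the whole of intron 1, exon 2 and a part of intron 2, and 94.7% of its length lies in no coding exon. Tnip3-204, a block of 2624 nucleotides around exon 5, took 24.8% ± 0.88, and 95.1% of it is intronic. The coding transcript Tnip3-201, with 8 exons, took 3.84% ± 1.53. Traf1-206 and Traf1-208, the retained-intron transcripts of Traf1, took 38.4% ± 7.2 and 26.0% ± 0.83 and are 84.9% and 84.7% intronic. Other retained-intron transcripts with at least 10% of their gene's counts were Tax1bp1-206 (21.8%), Tax1bp1-202 (14.4%), Birc2-203 (12.9%), Tnip2-204 (12.1%) and Cyld-207 (12.1%). A coding transcript led in those genes and in the rest of the network, from 47.2% of counts for Cyld-203 and 49.9% for Birc2-204 to 75.2% for Tnip2-202 and 81.3% for Otulin-201. Between these lay Birc3-201 (53.8%), Tax1bp1-201 (61.7%) and Tnip1-205 (62.8%).

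**Figure D4:**
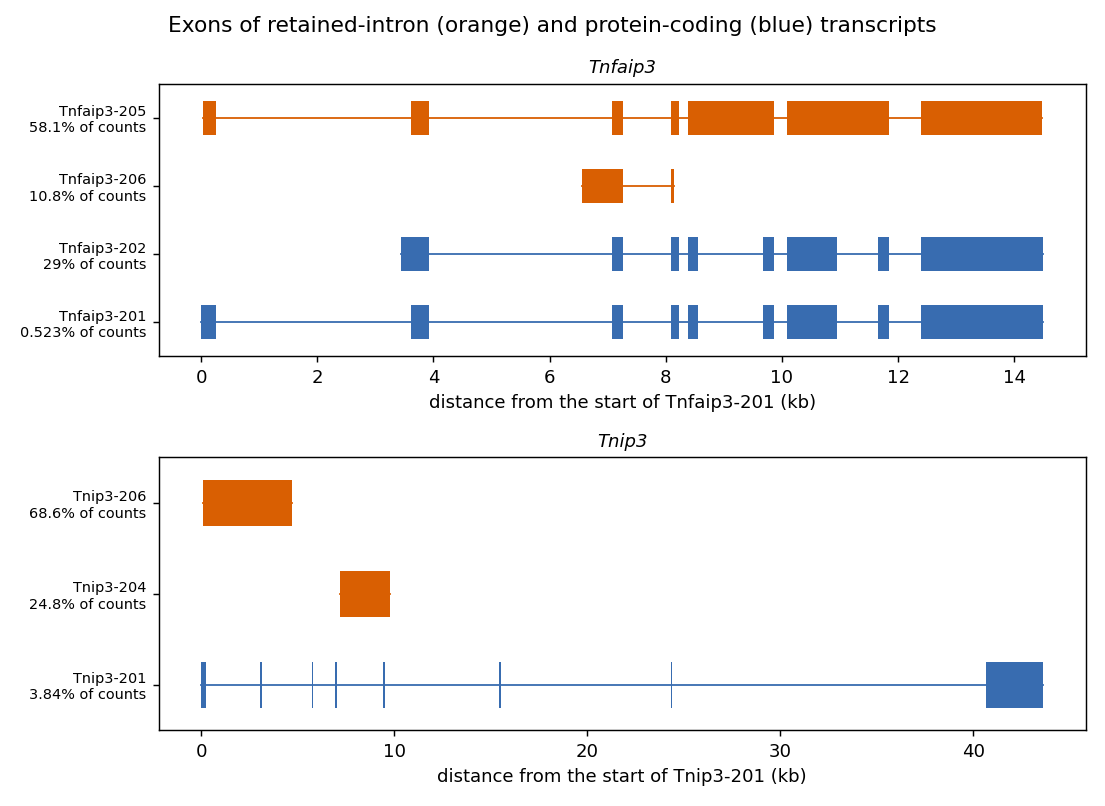
Exons of the main transcripts of Tnfaip3 and Tnip3 by distance from the start of Tnfaip3-201 or Tnip3-201 (kb); blocks are exons, thin lines introns, orange retained-intron and blue protein-coding transcripts. Tnip3-206, with 68.6% of counts, covers the first part of the span of Tnip3-201, and Tnfaip3-205, with 58.1%, runs through introns 5 and 7. The annotated gene Tnip3 begins further upstream than Tnip3-201.

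The splice sites of the introns that Tnip3-206 and Tnfaip3-205 keep whole are shown so that the unspliced junctions can be seen. Each stretch comes from the GENCODE transcript sequences (GRCm38), 5′ to 3′, with the first bases of the intron in capitals at donors and its last bases in capitals at acceptors.
Tnip3 intron 1 donor, chr6:65590643-65590672, plus strand: gcacacagagGTAAGAgcatgtgtcaggtt
Tnip3 intron 1 acceptor, chr6:65593449-65593478, plus strand: tattattattatctttaAAGtgtgctccac
Tnfaip3 intron 5 donor, chr10:19006843-19006872, minus strand: agtggacctgGTAAGAaaacatcagttcct
Tnfaip3 intron 5 acceptor, chr10:19005722-19005751, minus strand: tttttttttttccccttCAGaacttcgcgc
Tnfaip3 intron 7 donor, chr10:19004437-19004466, minus strand: gaaaataagcGTGAGTgaaatcagagattg
Tnfaip3 intron 7 acceptor, chr10:19003748-19003777, minus strand: tagcatcccctcttttgTAGagtctgttac
Every donor shown begins with GT and every acceptor ends with AG, the usual splice signals. Intron 1 of Tnip3 is 2816 nucleotides long, and introns 5 and 7 of Tnfaip3 are 1131 and 699.

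Libraries were then compared with each other on TMM-normalised counts, with a member called where a library was at least 2-fold above, or at least 2-fold below, both others. In replicate 1, 1 of 10 members was above, where the background over all 15874 genes was 4.86%, and 0 were below (background 3.23%). In replicate 2, 0 were above (0.857%) and 1 was below (2.22%). In replicate 3, 0 were above (1.54%) and 0 below (1.39%). The member called in replicate 1 was Tnip3 and the member called in replicate 2 was Tnfaip3.

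Tnip3 had 489.6 CPM (normalised counts relative to library size) in replicate 1, against 140.9 in replicate 2 and 163.1 in replicate 3. Replicate 1 was 3.23-fold above the geometric mean of the others. The excess was seen in both transcript classes: retained-intron transcripts were 3.25-fold and coding transcripts 2.64-fold above the mean of the other libraries. The coding counts of Tnip3 were few, at 317.2, 138 and 83.5 in replicates 1 to 3, and with coding counts alone Tnip3 was no longer called, since replicate 1 then fell just short of 2-fold above replicate 2. With the second transcript table it was called as before.

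Tnfaip3 had 127.9 CPM in replicate 2, against 357.6 in replicate 1 and 365.5 in replicate 3, so that replicate 2 was at 0.354 of the geometric mean of the others. Coding transcripts (0.328 of the mean of the others) and retained-intron transcripts (0.366) were low alike. Replicate 2 is also the library made from 500 ng of RNA and the one with the highest protein-coding share of TPM, and the part of either in the low count was not tested. Tnip3 was also lowest there, at 0.499 of the others, but was not 2-fold below replicate 3. Tnip1, Birc3 and Traf1 were at 0.979, 0.926 and 0.716 of the others.

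Without a fold threshold, 7 of 10 members lay below both other libraries in replicate 1, where 34.7% of all 15874 genes did. In replicate 3, 6 of 10 lay above both others, where 31.9% of all genes did. Tnip1 had 18.3, 26.2 and 39.1 CPM and Birc3 33.4, 44.0 and 67.6 CPM in replicates 1 to 3, so that both differed more than 2-fold between replicates 3 and 1. Cyld varied least, with 68.5, 81.4 and 78.0 CPM. The median SD of log2 CPM was 0.38 over the members and 0.32 over all 15874 genes, and 6 of 10 members were above the median of all genes. The second transcript table held more counts for every member. Its ratio to the first table ran from 1.20 (Tnip3) to 2.12 (Tnip1) in replicate 1, from 1.52 (Tnip3) to 2.62 (Traf1) in replicate 2 and from 1.21 (Birc2) to 1.79 (Birc3) in replicate 3. The median ratios over all genes were 1.41, 1.83 and 1.38. Tnfaip3, Tnip1, Tnip2, Cyld, Otulin, Birc3 and Traf1 were above the median in each library. Tnip3, Tax1bp1 and Birc2 were below it in each.

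**Figure D5:**
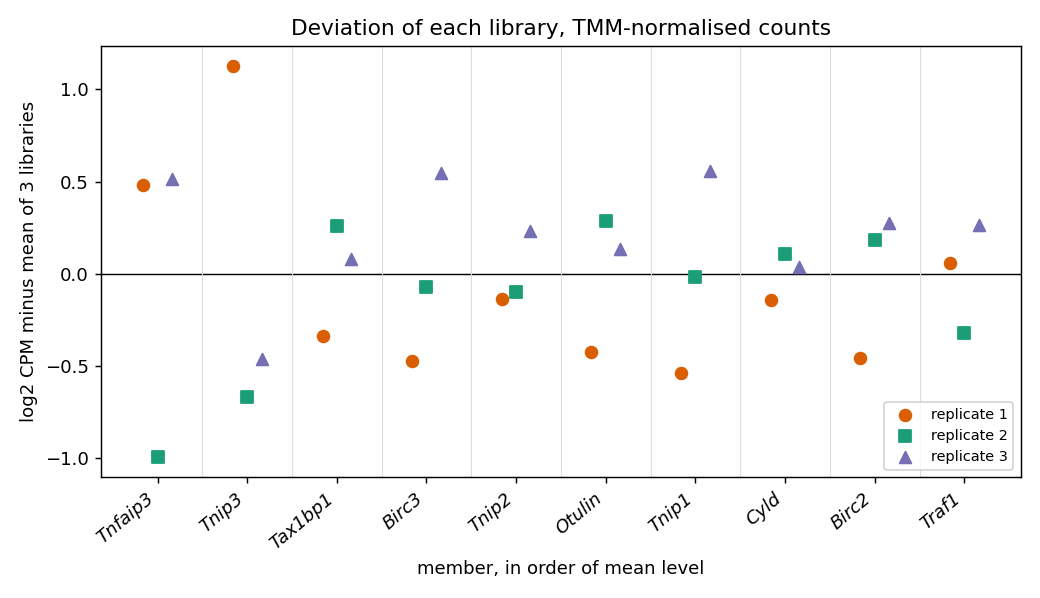
Log2 CPM of each member in each library minus its mean over 3 libraries (TMM-normalised; symbols mark the replicates). Replicate 1 is the highest for Tnip3 and the lowest for 7 members (34.7% of all genes were lowest there), and replicate 2 is far the lowest for Tnfaip3.

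The wider pathway was described over 43 genes in 5 lists, of which 42 passed the count filter. Otud7a, a deubiquitinase, was the exception with no counts in any library, and a count of 0 allows for up to 3. In replicate 2, 4 of 42 partner genes were at least 2-fold below both others (background 2.22%), and no partner was called in any other library or direction. All 4 were in the list of IκB and NF-κB genes. Replicate 2 was at 0.213 of the others for Nfkbia, the main inhibitor of NF-κB, 0.259 for Nfkbiz, 0.35 for Nfkbie and 0.408 for Nfkbid, and so stood low for these inhibitors and coregulators as it did for Tnfaip3. None of the other 7 genes of that list was called. They ran from 0.549 for Nfkb2 and 0.581 for Nfkbib, through 0.717 for Rela, 0.772 for Bcl3, 0.794 for Relb and 0.987 for Nfkb1, to 1.25 for Rel. The median deviation of the whole list in replicate 2 was -0.78 on the log2 scale.

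By level, the IκB and NF-κB list of 11 genes had a median of 13.3 ± 1.3 TPM (SD, n = 3). In it, 9 genes were at 10 TPM or more, a mark for which the share of all genes is not given. It ran up to 198.3 ± 110.1 TPM for Nfkbia, followed by Nfkbiz at 49.0 ± 26.4 TPM, with Nfkbib the lowest at 5.55 ± 1.13 TPM. The 6 genes of the linear ubiquitin ligase and its regulators had a median of 18.7 ± 1.1 TPM. There, Sharpin, a subunit of that ligase, had 29.9 ± 4.2 TPM, Otulinl, a relative of Otulin, 27.2 ± 2.9 TPM, and Spata2l, the lowest, 2.27 ± 0.11 TPM. Otulin itself, which removes the chains that this ligase makes, had 16.6 ± 7.0 TPM, as given above. The 7 genes of the IKK and TAK1 kinases had a median of 14.6 ± 2.3 TPM, led by the kinases Chuk (40.6 ± 10.7 TPM) and Ikbkb (39.4 ± 6.1 TPM), with the adaptor Tab3 lowest at 3.34 ± 0.89 TPM.

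The 8 genes of the Tnf receptor and Cd40-type complexes had the lowest median, 6.97 ± 1.21 TPM (SD, n = 3). The receptor Tnfrsf1b had 50.2 ± 15.9 TPM and the kinase Ripk1, a substrate of A20, 27.2 ± 5.7 TPM, while the adaptor Traf2 was lowest at 4.01 ± 0.48 TPM, close to its partner Traf1. Among the 11 other ubiquitin editors the median was 11.3 ± 2.0 TPM. The deubiquitinase Usp4 led with 34.0 ± 7.0 TPM, followed by Xiap, a relative of the cIAPs, with 22.7 ± 6.8 TPM. The median of the A20 network, 21.3 ± 4.0 TPM, was numerically above that of each of the 5 lists, and the difference was not tested.

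Of 8994 protein-coding genes that averaged 100 or more counts, the 3 whose pattern over the 3 libraries lay nearest to that of Tnfaip3 were Ccdc142, Cxcl1 and Cdkn2c, at distances of 0.0121, 0.0661 and 0.123 in centred log2 CPM. Cxcl1, a neutrophil chemokine, had 83.3, 27.9 and 82.4 CPM in replicates 1 to 3. Cdkn2c, an inhibitor of cell cycle kinases, had 9.80, 3.17 and 8.99 CPM, and Ccdc142 had 9.44, 3.34 and 9.56 CPM. All 3 were low in replicate 2, as Tnfaip3 was, which follows from how they were chosen. A likeness over 3 libraries is a description of these libraries and no more.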

How the data were processed

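Expected counts and TPM per gene and transcript were made by the authors, with column names of the kind RSEM writes, per the file headers; a second table of estimated counts and TPM per transcript has those of kallisto. Per the notes deposited with them, the build is mm10 and the annotation GENCODE M21; the sources used here give no program versions and no strand use. The bounds and posterior SD deposited with each value were treated as a score, and only the SD is quoted. Rows of no annotated gene, spike-ins included, held 1.31%, 0.472% and 0.174% of counts in replicates 1 to 3 and were left out. The limit that a count of 0 allows, 3 counts, equals 0.143 to 0.173 CPM (counting error only).

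Expected counts were rounded, genes with a mean of at least 10 kept, and log2 CPM (prior count 2) computed in R 4.3.3 with edgeR 4.0.16 (TMM factors 1.07, 1.02 and 0.921). Tables were made with Python 3.11.15 and pandas 2.3.3, and checked on simulated data. Genes were compared within libraries on log2(TPM + 0.1), which understates differences of low genes, by an exact sign-flip permutation test. Replicates come from the labels and make up 1 group. DESeq2 1.42.0 size factors, other pseudocounts, filters and tables and leaving out replicates were tried. Members and lists were chosen with earlier results of these data known. Named genes were all members, the 2 highest and the lowest partner of each list, partners called 2-fold, and the 3 genes nearest to Tnfaip3. The other IκB and NF-κB genes, Itgam, Lyz2, Cd3e, Cd4 and Kdr were added after their values were seen. The alternatives on coding transcripts and on the count of members past 50% retained intron were also chosen after seeing the data. Protein sequences were not analysed here.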

Additional observations from a re-analysis of the deposited data

How the results depend on the processing

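Without replicate 1, 2 or 3 the median level of the members was 19.03 to 22.9 TPM. Against 21.3 TPM, it was 13.1 TPM in the second transcript table, 77.4 TPM when TPM was taken over protein-coding genes alone, and 10.3 TPM over coding transcripts, an alternative chosen after seeing the data. Of the 5 pairs, Tnip3 minus Tnip1 turned to -2.31 over coding transcripts, and Cyld minus Otulin to 1.74 in CPM not corrected for length; the signs held in the other 43 values. Calls by library gave the same counts under DESeq2 size factors, library totals, other count filters and the second table. Over coding transcripts 0 members were called above in replicate 1. At a fold of 1.5, 1 member was below in replicate 1 and 1 above in replicate 3. Shares of all genes called by library are given only for the main 2-fold calls. Counts under another setting, or with a library left out, have no such background beside them. With a library left out, a call rests on a single other library: counts were 1 to 2 above and 0 to 2 below for replicate 1, 1 to 2 below for replicate 2, and 1 to 2 above and 0 to 1 below for replicate 3. Without replicate 2, Tnip1 and Birc3 were above in replicate 3; without replicate 1, Tnfaip3 was; without replicate 3, Tnfaip3 was above in replicate 1 and Tnip3 below in replicate 2. Members with at least 50% of counts in retained-intron transcripts numbered 2, against 3, by share of TPM and in the second table. No paired analysis was possible because there is only 1 group. Counts of 148 to 244 limit the precision for Traf1.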
